A study of Mus musculus with 11 samples.

Results

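The genes described here are 8 antimicrobial and barrier defence genes of the mouse colon: Lyz2, Lyz1, Pglyrp1, Pla2g2a, Slpi, Ang4, Itln1 and Lypd8. They were taken by symbol through the Ensembl identifiers of a table that listed 22836 genes, and all 8 were found and passed the filter on low values. RNA of whole colon was sequenced in 11 libraries of 3 groups. The 5 KO_AT libraries came from Tfam fl/fl Cd4 Cre mice given CD4 T cell therapy, the 3 KO libraries from Tfam fl/fl Cd4 Cre mice without it, and the 3 control libraries from Tfam fl/fl mice, so the floxed Tfam allele was shared by all groups. Cre driven by Cd4 deletes Tfam in CD8 as well as CD4 T cells, because maturing T cells pass through a stage that carries both markers. The therapy was a transfer of competent CD4 T cells from young donor mice, and no CD8 T cells were transferred. The labels give neither the age nor the strain of these mice and do not name the animals, which leaves p-values to measure no more than the scatter of these libraries, some of which may be technical. The question was how the defence genes differed between mice with Tfam-deficient T cells that received CD4 T cells, other such mice that did not, and control mice.

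These proteins act at different steps of mucosal defence. Lysozymes cut the peptidoglycan of bacterial cell walls, and the mouse has a lysozyme gene of Paneth cells (Lyz1) next to one of macrophages and other myeloid cells (Lyz2). The peptidoglycan recognition protein Pglyrp1 binds the same polymer and kills bacteria, and the secreted phospholipase Pla2g2a hydrolyses bacterial membrane lipids. Slpi is a leukocyte protease inhibitor with antimicrobial activity. Ang4 is an angiogenin-family ribonuclease that kills bacteria, Itln1 is a lectin that binds microbial glycans, and Lypd8 is an anchored epithelial protein that binds flagella and keeps motile bacteria away from the colonic epithelium.

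Reads in genes numbered 18362839 to 18909294 per KO_AT library, 18437516 to 19178986 per KO library and 18214741 to 18994650 per control library, so depth was alike in the groups. Values are normalized counts, that is reads divided by 1 factor per library, and 1 read was worth about 1 normalized count. Tfam itself, measured in whole colon where T cells are a minority, had 865 to 1090 normalized counts in KO_AT, 1040 to 1102 in KO and 977 to 1083 in control libraries, which overlapped, so whole colon gave no check of the deletion. Mitochondrial genes took 3.84% to 4.82% of reads in KO_AT, 2.55% to 3.44% in KO and 4.63% to 6.73% in control libraries, and the part of this in the results was not tested. Epithelial markers were at high levels in every library: the summed level of 13 such genes was 335040 to 445860 in KO_AT, 376841 to 474359 in KO and 330942 to 395456 in control libraries. Markers of other cells moved with the groups. Over all genes tested, 22.7% were called higher and 22.9% lower in KO than in control colons (adjusted p under 0.05, limma). In KO_AT against KO colons these shares were 17% and 14.2%, and in KO_AT against control colons 1.14% and 0.453%. Of the neutrophil list, 12 of 17 genes were tested and all 12 were higher in KO than in control colons. The filter averaged over all libraries, so a gene low elsewhere could pass it through the KO libraries. Cxcr2 (means of 51.4 in KO, 1.32 in KO_AT and 0 in control colons) and Retnlg (81.4, 2.55 and 1.43) did so. Counts of called neutrophil genes were therefore partly set by the filter. Over all 17 genes the mean log2 level was 2.75 to 4.79 in KO_AT, 6.31 to 7.38 in KO and 2.28 to 2.59 in control libraries, which did not overlap. The summed level of the list was 2413 to 9888 in KO_AT, 9395 to 20020 in KO and 1789 to 4144 in control libraries, and most of it in KO_AT and control libraries was Cd177 (2202 to 9432 in KO_AT, 6213 to 13321 in KO and 1681 to 4024 in control libraries), the 1 gene of the 12 not called in KO_AT against KO colons (adjusted p = 0.374). Of 14 macrophage genes 9 were higher and 2 lower in KO than in control colons, of 8 monocyte genes 6 were higher and 1 lower, all 10 T cell genes were higher and all 10 smooth muscle genes were lower. The monocyte gene Chil3 also passed the filter through the KO libraries (means of 104 in KO, 5.93 in KO_AT and 1.01 in control colons). In KO_AT against KO colons 11 neutrophil, 5 macrophage, 5 monocyte and 2 T cell genes were lower, and 2 macrophage, 1 monocyte and 10 smooth muscle genes were higher. In KO_AT against control colons 1 neutrophil, 1 macrophage and 3 T cell genes were higher and 6 smooth muscle genes were lower. In whole tissue, more cells of a type and more RNA per cell cannot be told apart.

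Lyz2 and Lyz1 lie side by side on the minus strand of chromosome 10 (GRCm39, Lyz2 at chr10:117111557-117118346 and Lyz1 at chr10:117123698-117128775). Their coding sequences are both 444 bases long and differ at 22 of them, which makes them 95.05% identical. The coding part of the first exon holds 14 of these differences among 136 bases, and it is shown because reads of the neighbours can be told apart only where the bases differ. Capitals mark the bases that differ (GENCODE transcripts, GRCm39, Lyz2 at chr10:117118012-117118147 and Lyz1 at chr10:117128608-117128743, minus strand).
Lyz2 first exon: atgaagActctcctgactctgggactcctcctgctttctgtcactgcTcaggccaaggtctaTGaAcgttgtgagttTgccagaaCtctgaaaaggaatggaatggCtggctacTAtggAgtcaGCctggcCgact
Lyz1 first exon: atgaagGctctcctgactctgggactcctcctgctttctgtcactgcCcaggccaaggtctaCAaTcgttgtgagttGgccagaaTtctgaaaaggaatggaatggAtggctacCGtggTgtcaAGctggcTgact
The longest stretch that the 2 transcripts share without a difference was 118 bases, and 15.98% of the 50-base windows of the Lyz1 transcript and 7.30% of those of the Lyz2 transcript also occurred in a transcript of another measured gene. Reads that lie wholly in such stretches cannot be assigned to 1 gene, so the level of the scarcer gene, Lyz1, is the less certain. The 50 bases were a chosen length, and the study's methods name no read length, so the share of reads affected is not known.

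The bases before the start sites are shown because both genes rose in KO colons at very different levels. Of the 250 bases upstream of each start (RefSeq promoters, GRCm38.p6, Lyz2 at chr10:117282273-117282522 and Lyz1 at chr10:117292869-117293118, minus strand), 248 could be aligned and 200 of these (80.6%) were identical. The 50 bases next to the start had no difference, the nearest 100 bases had 8, and the other 150 bases of Lyz2 had 42 that differed or had no partner. Capitals mark the bases that differ or have no partner.
Lyz2 upstream: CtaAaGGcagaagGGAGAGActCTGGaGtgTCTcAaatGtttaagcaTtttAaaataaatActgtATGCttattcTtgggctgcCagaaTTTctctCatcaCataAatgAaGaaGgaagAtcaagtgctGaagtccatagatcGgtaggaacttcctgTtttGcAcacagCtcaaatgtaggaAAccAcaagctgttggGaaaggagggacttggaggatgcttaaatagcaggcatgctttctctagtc
Lyz1 upstream: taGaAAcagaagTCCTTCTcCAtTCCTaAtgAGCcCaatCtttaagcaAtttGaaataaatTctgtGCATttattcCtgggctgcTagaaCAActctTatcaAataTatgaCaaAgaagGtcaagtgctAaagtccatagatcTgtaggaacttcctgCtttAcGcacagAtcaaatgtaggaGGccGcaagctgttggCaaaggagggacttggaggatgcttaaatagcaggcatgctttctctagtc
Both windows held AGGAAGT, the core read by ETS factors, which 7.69% of the 32851 promoters in the table held on either strand. Lyz1 alone of the pair held TTGCNNAA, a C/EBP motif, 209 bases upstream, a motif that 9.56% of all promoters held. These are matches of letters only.

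Lyz2 was among the abundant genes of the colon, and its level was higher in every KO colon than in any other colon. Its normalized counts were 5695, 2390, 7811, 5394 and 2738 in KO_AT libraries 1 to 5, 11019, 11456 and 8102 in KO libraries 1, 3 and 4, and 1411, 1549 and 2039 in control libraries 1 to 3. The 3 groups did not overlap: KO lay above KO_AT, and KO_AT above control. In KO against control colons the ratio of means was 6.12, and the log2 fold change on the log2(normalized count + 1) scale was 2.61 (SE 0.38, 95% interval 1.78 to 3.45, adjusted p = 0.000291). After T cell transfer Lyz2 was lower than in KO colons, with a log2 fold change of -1.21 (SE 0.34, adjusted p = 0.020). This call was lost without KO library 1 (adjusted p = 0.0583) or KO library 3 (adjusted p = 0.0804), and with libraries scaled to the epithelial markers (adjusted p = 0.0636). KO_AT against control colons gave 1.404 (SE 0.34, adjusted p = 0.0640), which did not pass the threshold. The 2 KO_AT libraries lowest in Lyz2, numbers 2 and 5, also had the lowest mean levels of the monocyte list (6.34 and 6.38 on the log2 scale, against 7.23 to 7.59 in the other 3) and of the neutrophil list (2.90 and 2.75, against 3.52 to 4.79). The part of these cells in the Lyz2 level was not tested.

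Lyz1 was measured at a far lower level than its neighbour in all 11 libraries. It had 222, 108, 427, 215 and 106 normalized counts in KO_AT libraries 1 to 5, 264, 154 and 314 in KO libraries 1, 3 and 4, and 41.4, 74.6 and 111 in control libraries 1 to 3. The KO libraries all lay above the control libraries, while the KO_AT libraries overlapped both groups. Lyz1 was higher in KO than in control colons, with a ratio of means of 3.22 and a log2 fold change of 1.72 (SE 0.51, adjusted p = 0.0170). The call was lost without KO library 4 (adjusted p = 0.0640) or control library 1 (adjusted p = 0.0674). Neither KO_AT against KO colons (log2 fold change -0.31, 95% interval -1.32 to 0.69, adjusted p = 0.634) nor KO_AT against control colons (1.41, 95% interval 0.40 to 2.41, adjusted p = 0.134) passed the threshold. Paneth cells are absent from the normal mouse colon, and of 15 alpha-defensins listed as their defining markers the 1 measured, Defa24, had at most 6.57 normalized counts in a KO_AT, 5.87 in a KO and 6.62 in a control library. Of the other Paneth cell markers measured, Mmp7, the metalloprotease that activates alpha-defensins, had 35.6, 14.1, 26.5, 73.4 and 5.48 normalized counts in KO_AT libraries 1 to 5, 460, 893 and 323 in KO libraries 1, 3 and 4, and 12.2, 0 and 1.10 in control libraries 1 to 3. Mmp7 was higher in KO than in control colons (log2 fold change 7.40, SE 0.96, adjusted p = 0.000150) and lower in KO_AT than in KO colons (-4.44, SE 0.86, adjusted p = 0.00323). Guca2b, the uroguanylin precursor, was higher in KO than in control colons (0.97, adjusted p = 0.0139), and Clps, a colipase, was not called (-0.89, adjusted p = 0.321). The summed level of the 4 Paneth cell markers measured, which do not include Lyz1, was 319 to 803 in KO_AT, 1226 to 1518 in KO and 367 to 607 in control libraries. Most of it in KO_AT and control libraries was Guca2b (292 to 664 in KO_AT, 592 to 895 in KO and 304 to 497 in control libraries). The sum is therefore no measure of Paneth cells, and the part of these markers in the Lyz1 level was not tested.

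Because both lysozymes were counted in the same libraries, their ratio does not depend on how libraries were scaled. Lyz2 made up 95.8% ± 0.62 of the summed Lyz1 and Lyz2 counts in KO_AT (SD, n = 5), 97.5% ± 1.21 in KO (SD, n = 3) and 95.8% ± 1.21 in control colons (SD, n = 3). The difference of KO minus control was 1.74 percentage points (exact permutation test, two-sided, p = 0.20, adjusted p = 0.30 over 3 comparisons, with 0.10 the smallest p that 3 against 3 libraries allow). KO_AT minus KO was -1.70 points (exact permutation test, two-sided, p = 0.0357, the smallest p that 5 against 3 libraries allow, adjusted p = 0.107). The highest KO_AT library and the lowest KO library both had 96.3%, so the groups barely separated. KO_AT minus control was 0.045 points (exact permutation test, two-sided, p = 0.929, adjusted p = 0.929). No difference in the share passed the threshold.

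**Figure D1:**
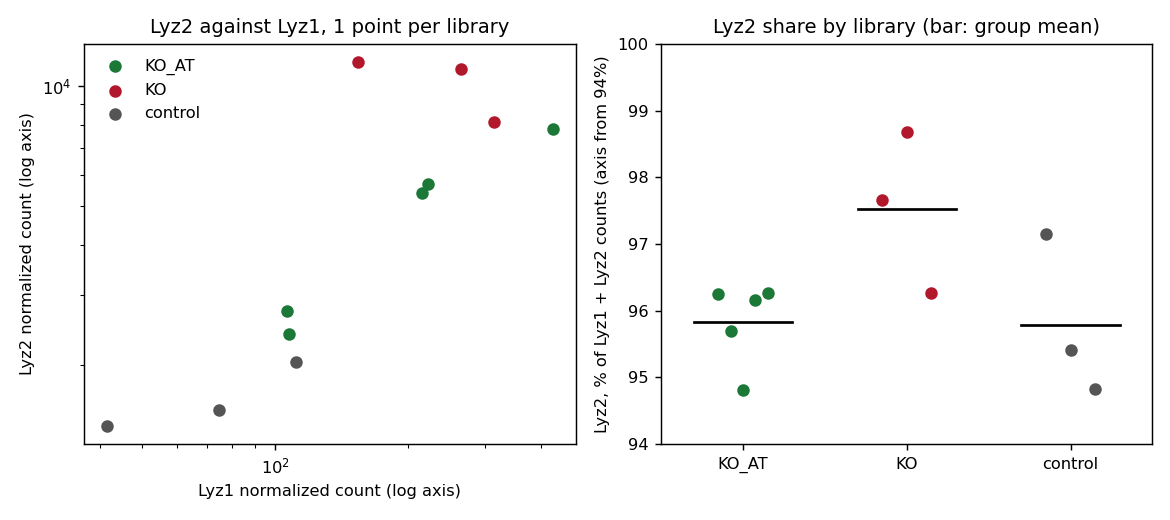
Left, Lyz2 against Lyz1 in normalized counts on log axes, 1 point per library (green KO_AT, red KO, grey control). Right, Lyz2 as a percentage of Lyz1 plus Lyz2 counts, with bars at the group means of 95.8% (KO_AT), 97.5% (KO) and 95.8% (control) and an axis that starts at 94%.

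Pglyrp1, the peptidoglycan binding protein, had normalized counts of 4569, 4973, 6094, 6861 and 4079 in KO_AT libraries 1 to 5. KO libraries 1, 3 and 4 had 8551, 10327 and 8628, and control libraries 1 to 3 had 3176, 2186 and 3698. The groups did not overlap, with KO highest, control lowest and KO_AT between them. Pglyrp1 rose in KO against control colons (log2 fold change 1.63, SE 0.22, adjusted p = 0.000166) and fell in KO_AT against KO colons (-0.81, SE 0.19, adjusted p = 0.00933). The second call was lost without KO library 3 (adjusted p = 0.0503) and with epithelial scaling (adjusted p = 0.0571). KO_AT against control colons gave 0.82 (SE 0.19, adjusted p = 0.0601), which did not pass. Exons of Pglyrp1 (GRCm39, chr7:18605256-18624384, plus strand) overlap those of Ccdc61 on the other strand, and Ccdc61 had 340 to 486 normalized counts over the 11 libraries, well under the Pglyrp1 values. The strand setting of the counting is not given in the sources used here.

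Pla2g2a had the largest log2 fold change of the 8 genes in KO against control colons. Its normalized counts were 571, 96.6, 525, 875 and 103 in KO_AT libraries 1 to 5, 1792, 1774 and 853 in KO libraries 1, 3 and 4, and 23.5, 4.97 and 25.4 in control libraries 1 to 3. Every KO and every KO_AT library lay above every control library, while KO_AT library 4 slightly exceeded KO library 4. The ratio of means of KO to control was 82.0, and the log2 fold change was 6.47 (SE 0.86, 95% interval 4.60 to 8.35, adjusted p = 0.000160). Only 0.119% of all genes tested had a larger log2 fold change in that comparison. In KO_AT against KO colons it was -2.19 (SE 0.77, adjusted p = 0.0481), a call that 13 of 21 other settings did not make (adjusted p 0.0234 to 0.147 over the settings). In KO_AT against control colons it was 4.28 (SE 0.77, adjusted p = 0.0296). This was the 1 member called in that comparison, and it was not called without KO_AT library 1, 3 or 4 or without any 1 of the control libraries (adjusted p 0.0519 to 0.180). In the reference sequence of C57BL/6J mice Pla2g2a carries a loss of function: GENCODE types its main transcript as protein coding with loss of function and RefSeq types the gene as a transcribed pseudogene (GRCm39, chr4:138559171-138562497, plus strand). The measured RNA therefore says nothing of phospholipase protein.

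Slpi, the antiprotease, was high in all 3 KO colons and spread widely after transfer. It had 172, 163, 677, 418 and 51.5 normalized counts in KO_AT libraries 1 to 5, 1104, 1850 and 1058 in KO libraries 1, 3 and 4, and 114, 94.4 and 125 in control libraries 1 to 3. The KO libraries lay above all others, and the KO_AT libraries ran on both sides of the control range. Slpi rose in KO against control colons with a ratio of means of 12.0 and a log2 fold change of 3.54 (SE 0.71, adjusted p = 0.00193). It fell in KO_AT against KO colons by 2.61 on the log2 scale (SE 0.63, adjusted p = 0.00964), a call lost without KO library 3 (adjusted p = 0.0503). KO_AT against control colons gave 0.93 (SE 0.63, adjusted p = 0.440). Exons of Slpi (GRCm39, chr2:164195990-164231015, minus strand) overlap those of Matn4 on the same strand, and Matn4 had 1.09 to 30.1 normalized counts over the 11 libraries.

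The upstream sequences of Slpi and Pglyrp1 are shown because both genes were higher in KO than in control colons and lower in KO_AT than in KO colons (RefSeq, GRCm38.p6, 250 bases before the start, Slpi at chr2:164356508-164356757 on the minus strand and Pglyrp1 at chr7:18884440-18884689 on the plus strand). Capitals mark matches to any of 5 motifs searched on both strands, and no window shown held matches that overlap: TTCNNNGAA (STAT, in 7.02% of all promoters), TTGCNNAA (C/EBP, 9.56%), AGGAAGT (ETS, 7.69%), GGGA and TTCC with 2 bases between (NF-kB, 1.21%) and 2 copies of GAAA with 2 bases between (interferon-stimulated response element, 2.98%).
Slpi upstream: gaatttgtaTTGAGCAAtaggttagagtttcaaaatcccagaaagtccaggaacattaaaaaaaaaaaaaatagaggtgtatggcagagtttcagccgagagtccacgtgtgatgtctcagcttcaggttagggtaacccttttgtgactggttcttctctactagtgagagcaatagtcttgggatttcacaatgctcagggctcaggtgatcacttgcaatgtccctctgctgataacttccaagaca
Pglyrp1 upstream: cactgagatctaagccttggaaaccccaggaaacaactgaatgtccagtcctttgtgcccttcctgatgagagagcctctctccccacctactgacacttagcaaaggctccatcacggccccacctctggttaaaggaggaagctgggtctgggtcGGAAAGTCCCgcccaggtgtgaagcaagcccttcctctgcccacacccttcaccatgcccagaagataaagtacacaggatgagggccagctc
Slpi held 1 match, to the C/EBP motif 241 bases upstream, and Pglyrp1 held 1, to the NF-kB motif 93 bases upstream. Ang4 held the STAT and the ETS motif, and the windows of Itln1 and Lypd8 held none of the 5. Of the 8 members 7 had a promoter in the table, and Pla2g2a was the other.

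Ang4, the ribonuclease, was set apart by 1 control library. Its normalized counts were 120, 63.4, 149, 108 and 118 in KO_AT libraries 1 to 5, 580, 451 and 246 in KO libraries 1, 3 and 4, and 89.5, 28.8 and 4803 in control libraries 1 to 3. Control library 3 thus exceeded every other library, while the other 2 control libraries lay below all KO libraries, and the KO_AT libraries all lay below the KO libraries. The KO mean was lower than the control mean (ratio of means 0.260), although the log2 fold change was positive. No comparison passed the threshold: the log2 fold change was 0.78 in KO against control colons (SE 1.35, adjusted p = 0.665), -1.89 in KO_AT against KO colons (SE 1.21, adjusted p = 0.256) and -1.11 in KO_AT against control colons (SE 1.21, adjusted p = 0.642). Without control library 3, which also sets the spread of the fit, the first was 2.95 (adjusted p = 0.00122), the second stayed at -1.89 (adjusted p = 0.00615) and the third turned to 1.07 (adjusted p = 0.25). Without control library 2 the first turned to -0.71. In control library 3 the pentraxin Mptx1, picked after its values were seen, had 202 normalized counts, against 8.48 and 8.95 in control libraries 1 and 2. Whether these values share a source was not tested. Ang4 lies on chromosome 14 (GRCm39, chr14:51990721-52011053, minus strand).

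Itln1 was the member with the lowest levels in KO_AT and KO colons per length, and no difference between groups was seen. It had 63.0, 58.3, 59.0, 79.1 and 20.8 normalized counts in KO_AT libraries 1 to 5, 62.7, 51.3 and 46.0 in KO libraries 1, 3 and 4, and 33.0, 24.9 and 150 in control libraries 1 to 3. The groups overlapped, and control library 3 was again the highest of all. The log2 fold change was 0.080 in KO against control colons (95% interval -1.25 to 1.41, adjusted p = 0.924), -0.039 in KO_AT against KO colons (-1.23 to 1.15, adjusted p = 0.965) and 0.041 in KO_AT against control colons (-1.15 to 1.23, adjusted p = 0.976), so differences of over 2-fold in either direction stay within the intervals. Its gene lies on chromosome 1 (GRCm39, chr1:171345690-171368943, minus strand).

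Lypd8, which shields the epithelium from flagellated bacteria, ranked between 3rd and 6th of all genes in every library. It took 0.800% to 1.32% of reads in genes in KO_AT, 0.695% to 0.846% in KO and 0.967% to 1.16% in control libraries. Its normalized counts were 138077, 209008, 183399, 160556 and 265586 in KO_AT libraries 1 to 5, 156752, 129050 and 167019 in KO libraries 1, 3 and 4, and 172651, 187350 and 232243 in control libraries 1 to 3. All KO libraries lay below all control libraries, while KO_AT overlapped both. The difference did not pass the threshold in KO against control colons (log2 fold change -0.38, SE 0.29, adjusted p = 0.299), and it did with epithelial scaling (-0.50, adjusted p = 0.0498). KO_AT against KO colons gave 0.31 (95% interval -0.25 to 0.88, adjusted p = 0.381) and KO_AT against control colons -0.070 (95% interval -0.64 to 0.49, adjusted p = 0.908). Lypd8 lies on chromosome 11 (GRCm39, chr11:58269863-58281554, plus strand).

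**Figure D2:**
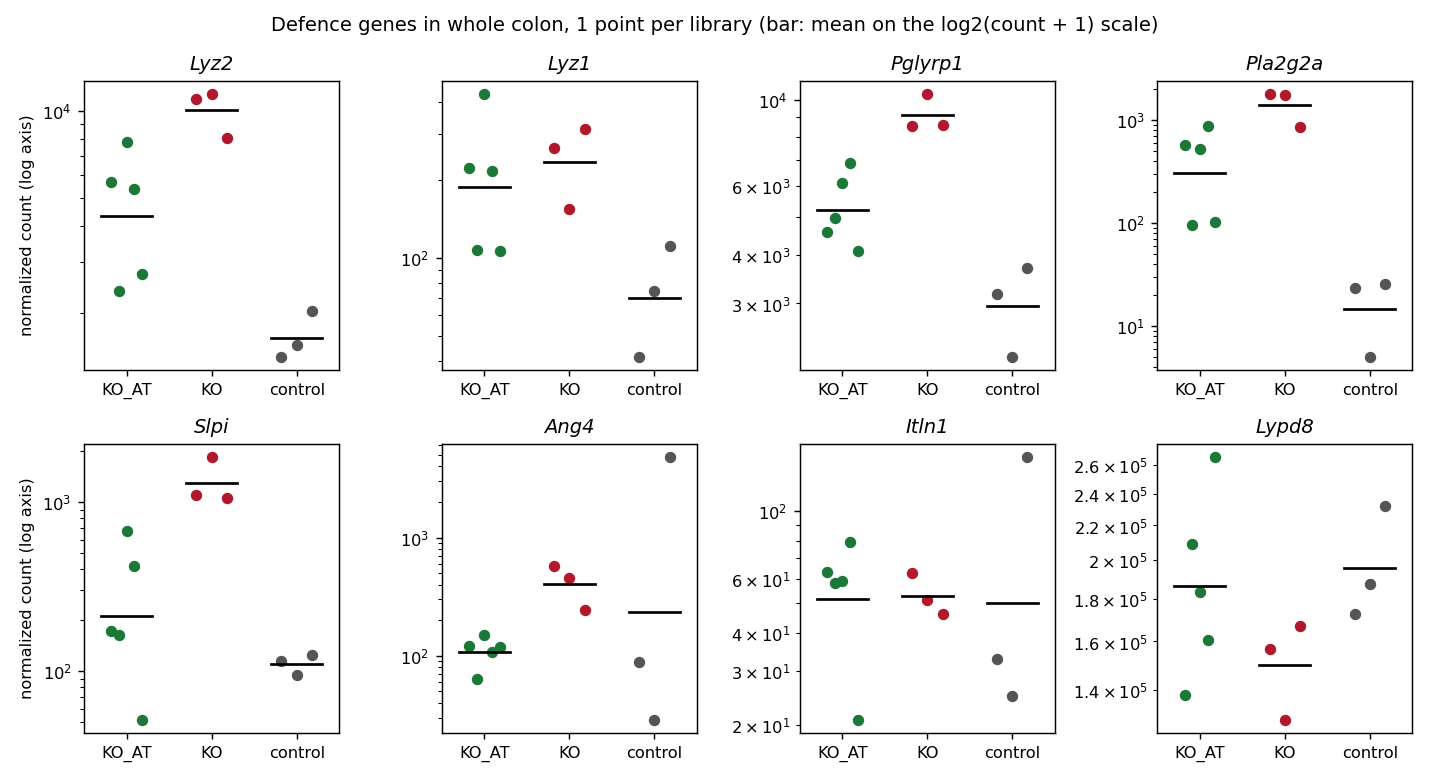
Normalized counts of the 8 genes on log axes, 1 point per library and 1 panel per gene, with KO_AT, KO and control from left to right and bars at the mean on the log2 scale. The bars of all genes but Lypd8 stand highest in KO colons, by little for Itln1, and not all of these differences passed the threshold. Control library 3 stands alone in Ang4 (4803) and Itln1 (150).

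Set against each other, 5 of the 8 genes were called higher in KO than in control colons and none lower, where 22.7% of 16781 genes tested were called higher and 22.9% lower. With libraries scaled to the epithelial markers, 2180 genes were called higher and 3959 lower, against 3805 and 3836 in the scaling of the deposited values, and the same 5 members were called higher with Lypd8 lower. The groups did not overlap for 6 of the 8 (Lypd8 with KO below control), beside 56.9% of all genes. In KO_AT against KO colons 4 members were called lower and none higher, where 14.2% of genes were called lower and 17% higher. With epithelial scaling 904 genes were called lower and 2873 higher, against 2380 and 2860, and the 1 member called lower was Slpi. Without KO library 3 no member was called at an adjusted p under 0.05 by limma and the count of genes called was 3078, against 5240 with it, and without KO library 1 the members called were 2. The groups did not overlap for 4 of the 8 members, beside 34.2% of genes. In KO_AT against control colons 1 member was called higher and none lower, where 1.14% of genes were called higher and 0.453% lower, and the groups did not overlap for 3 of the 8, beside 11.6% of genes. The median log2 fold change of the 8 was 1.68, -1.01 and 0.87 in the 3 comparisons in this order, beside 0.015, -0.019 and -0.0074 over all genes. The comparisons share libraries and are not independent of each other.

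**Figure D3:**
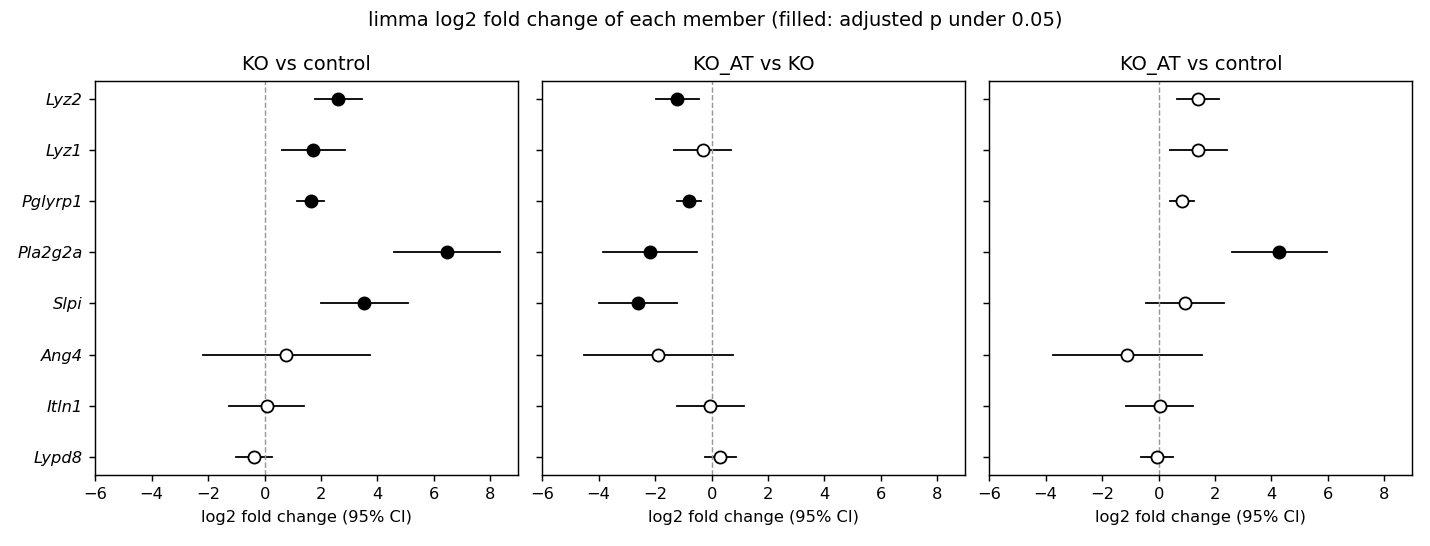
The log2 fold change of each gene with its 95% interval from limma, 1 panel per comparison, filled where the adjusted p was under 0.05. In KO against control colons Pla2g2a lies farthest right at 6.47, in KO_AT against KO colons Slpi lies farthest left at -2.61, and in KO_AT against control colons 1 gene, Pla2g2a at 4.28, is filled.

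To compare genes with each other, levels were divided by the joined length of all annotated exons of a gene. This length can exceed that of the main transcript: 1766 against 715 bases for Ang4, 1910 against 694 for Pglyrp1 and 1273 against 1269 for Lyz1. The order of the genes depends in part on this choice. Lypd8 led in all groups with 130776 normalized counts per kb in KO_AT, 103172 in KO and 134938 in control colons on average. In KO colons Pglyrp1 (4800 per kb), Lyz2 (3065) and Pla2g2a (1610) followed, each with a range that did not overlap the next except Pla2g2a and Slpi (1133). The lower places were held by Ang4 (241), Lyz1 (192) and Itln1 (41.0), of which Ang4 and Lyz1 overlapped. In KO_AT colons the order was Pglyrp1 (2783), Lyz2 (1445), Pla2g2a (474), Slpi (251), Lyz1 (169), Ang4 (63.3) and Itln1 (43.1), and every one of these overlapped its neighbour. In control colons Pla2g2a took the last place with 19.6 per kb, a range that overlapped that of Itln1 (53.3). The control mean of Ang4 (929 per kb) rests on library 3, since the range was 16.3 to 2719.

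**Figure D4:**
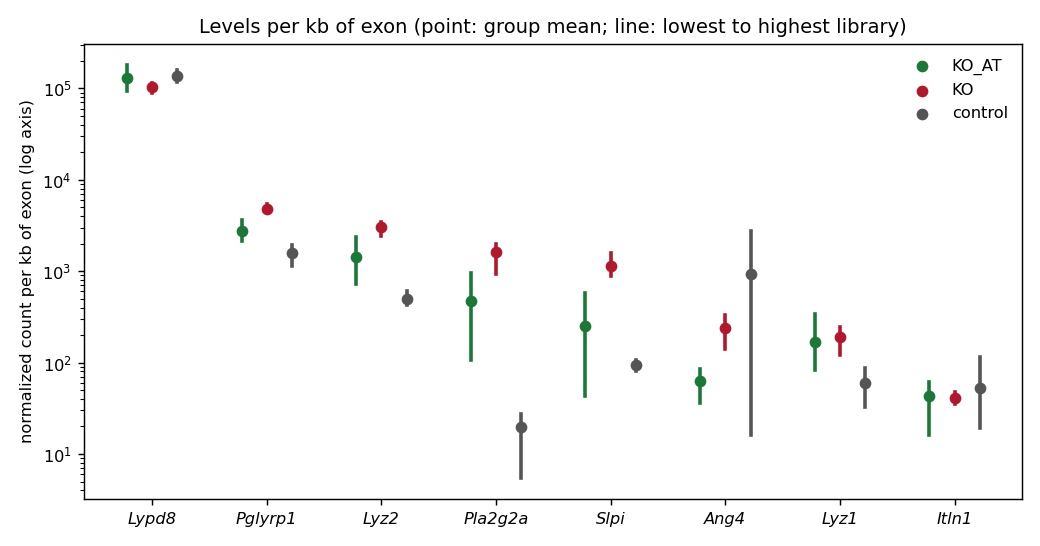
Normalized counts per kb of exon on a log axis, with points at group means and lines from the lowest to the highest library (green KO_AT, red KO, grey control). Lypd8 lies at 88209 per kb or more in every library, and the long grey line of Ang4 runs over 16.3 to 2719.

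Relatives of the members did not all move with them. The lists below were drawn up from general knowledge with earlier results of these data known, and each member is counted in its own list. Their counts stand beside the shares over all genes, 22.7% higher and 22.9% lower in KO against control colons. In KO_AT against KO colons these were 17% and 14.2%, and in KO_AT against control colons 1.14% and 0.453%. Of 11 secreted phospholipases 9 were tested, and in KO against control colons 6 were higher and 2 lower (median log2 fold change 1.31). Pla2g5, a phospholipase of macrophages and other cells, rose by 3.92 (SE 0.39, adjusted p = 2.90e-05), with 745, 972 and 1670 normalized counts in KO and 106, 51.7 and 60.6 in control libraries. Its KO_AT libraries had 351 to 923 normalized counts, all above control (3.12, SE 0.35, adjusted p = 0.00259). Pla2g3 ran the other way, with a log2 fold change of 2.12 in KO_AT against KO colons (adjusted p = 0.0105) and -2.49 in KO against control colons (adjusted p = 0.00493). In KO_AT against KO colons 1 phospholipase was higher and 2 were lower (median -0.80), and in KO_AT against control 2 were higher and none lower (0.39).

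Of 12 ribonucleases of the angiogenin family 4 were tested, Ang4 among them, and in KO against control colons Rnase6 was higher (log2 fold change 1.81, adjusted p = 0.00360) and 2 were lower (median -0.032). Ang, the founding angiogenin, had 399, 254 and 245 normalized counts in KO and 542, 523 and 505 in control libraries (log2 fold change -0.84, SE 0.17, adjusted p = 0.00204). Rnase4, which shares a promoter region with Ang, was lower by a like amount (-0.85, SE 0.18, adjusted p = 0.00229). Both were higher in KO_AT than in KO colons (0.78, adjusted p = 0.00325 for Ang and 0.83, adjusted p = 0.00272 for Rnase4), which made 2 higher and none lower (median -0.051), and none of the 4 was called in KO_AT against control colons (median -0.040). The lysozyme family had 9 genes listed and 2 tested, which were Lyz1 and Lyz2, with both higher in KO than in control colons (median 2.17), 1 lower in KO_AT than in KO colons (-0.76) and none called in KO_AT against control colons (1.41).

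Pglyrp2, an amidase that cleaves peptidoglycan, was the second of 4 recognition proteins tested and rose in KO against control colons by 1.993 (SE 0.41, adjusted p = 0.00221), with means of 38.7 normalized counts in KO and 9.19 in control colons. With Pglyrp1 this made 2 of 2 higher (median 1.81), 1 lower in KO_AT than in KO colons (-0.56) and 1 higher in KO_AT than in control colons (1.25). Of 16 WFDC antiproteases, the family of Slpi, 5 were tested, with 3 higher and 2 lower in KO against control colons (median 2.24). Wfdc18 rose there by 5.59 (SE 1.19, adjusted p = 0.00281), with 593, 742 and 491 normalized counts in KO and 49.9, 7.95 and 3.31 in control libraries, and Wfdc1 was lower (-2.20, adjusted p = 0.000200). After transfer 2 were higher and 3 lower in KO_AT than in KO colons (-1.27), and in KO_AT against control colons none was called (0.93). In the LY6/PLAUR family, which Lypd8 belongs to, 13 of 21 genes were tested, and 11 were higher and none lower in KO against control colons (median 2.32). This count was partly set by the filter, which Lypd3 passed through the KO libraries. Its means were 29.1 in KO, 6.8 in KO_AT and 4.98 in control colons. The close relative Lypd8l, named after its values were seen, rose by 1.986 (adjusted p = 0.0145), with means of 5528 normalized counts in KO and 1560 in control colons, and Ly6a, a surface protein of many interferon-exposed cells, rose by 4.12 (adjusted p = 1.98e-05). The neutrophil marker Ly6g, also of this family, had 3.02 to 38.1 normalized counts in KO_AT and 656 to 1657 in KO libraries, and was at 0 in 2 control libraries and 0.994 in the other. Of the 13, 6 were lower and none higher in KO_AT than in KO colons (-0.99), and in KO_AT against control colons 4 were higher and none lower (0.94).

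Other antimicrobial effectors of the mucosa were tested as a list of 40, of which 28 passed the filter. In KO against control colons 15 were higher and 4 lower (median 0.98). Some genes passed the filter only through the group where they were high, so these counts were partly set by it. Chi3l1, called higher, had means of 40.2 in KO, 5.7 in KO_AT and 3.67 in control colons. Mptx1, called lower, had means of 1.71 in KO, 5.4 in KO_AT and 73.1 in control colons. The bactericidal lectin Reg3g rose by 8.73 (SE 1.00, adjusted p = 7.06e-05), with means of 224100 normalized counts in KO and 854 in control colons, and Reg3b rose by 8.78 (SE 1.15, adjusted p = 0.000155). Nos2, the inducible nitric oxide synthase, rose by 5.38 (SE 0.38, adjusted p = 5.83e-06), and Ltf, the iron-binding lactoferrin of neutrophil granules, rose by 5.34 (adjusted p = 5.34e-05). In KO_AT against KO colons 11 were lower and none higher (-0.83), with Nos2 at -2.89 (adjusted p = 0.000241), and in KO_AT against control colons 3 were higher and none lower (0.39). These 3 were Nos2, Reg3g and Reg3b.

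For each member the 3 genes were sought whose log2 profile over the 11 libraries, centred on its own mean, lay closest by root mean square difference. Lyz2, whose own profile spread by 1.08 about its mean, was closest to Itgb2 (difference 0.174), Tyrobp (0.244) and Selplg (0.284). Lyz1, with a spread of 0.936, was closest to Adgre1 (0.412), C1qc (0.448) and Ccr10 (0.449). No gene was among the nearest 3 of both lysozymes. Pglyrp1 (0.654) was closest to Ddah1 (0.200), Smpd3 (0.206) and Pfkp (0.220), and Lypd8 (0.295) to Cpt2 (0.0844), Clmn (0.0846) and Lsm12 (0.0894). Slpi (1.63) was closest to Ighv1-81 (0.493), Adcy2 (0.543) and Nicol1 (0.581). The differences were largest for the members with the widest spread of their own, so their size does not rank the closeness of match. These members were Pla2g2a (2.67), with Serpina3f (0.986), Ighv1-66 (0.998) and Cxcl9 (1.00), and Ang4 (1.87), with Pla2g4c (0.998), Ighv1-18 (1.18) and Ighv2-9 (1.30). Itln1 (0.738) was nearest to Gm4972 (0.485), Tnfsf13os (0.499) and Pygl (0.50).

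The members and the marker lists can be read together by library. In KO libraries 1, 3 and 4 the mean log2 level of the neutrophil list was 6.39, 7.38 and 6.31, against 2.28 to 2.59 in control libraries, and the macrophage list was 8.46, 8.54 and 8.40, against 7.32 to 7.73. KO library 3, without which no member was called in KO_AT against KO colons, had the highest Lyz2, Pglyrp1 and Slpi of all 11 libraries and the highest neutrophil and monocyte means. KO_AT library 5 had the lowest Slpi (51.5) and Itln1 (20.8) of all libraries, the highest Lypd8, and the highest mean of the absorptive colonocyte list (13.8, against 12.1 to 13.1 in the other KO_AT libraries). The part of these cells in the member levels was not tested.

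**Figure D5:**
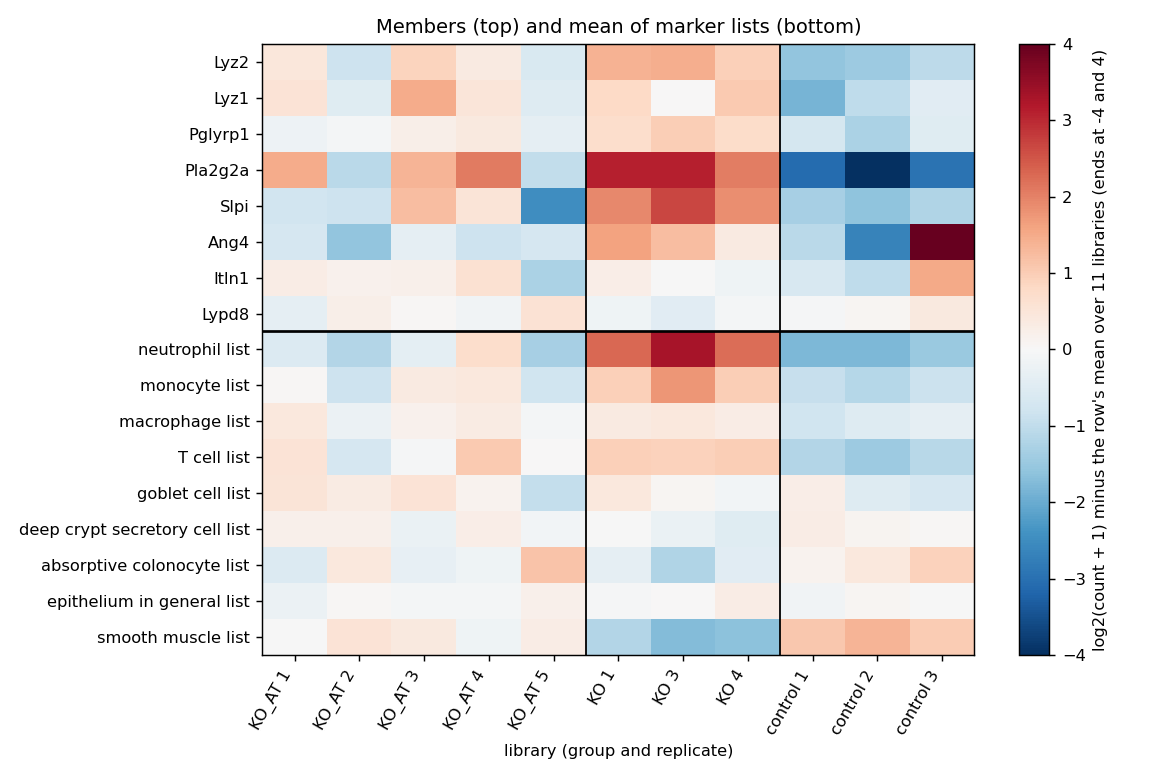
Log2(normalized count + 1) minus the mean of each row over 11 libraries, with the 8 genes above and the means of 9 marker lists below, and columns for KO_AT, KO and control libraries from left to right. The neutrophil, monocyte and T cell rows are red in the KO columns where Lyz2, Pla2g2a and Slpi are red, and the smooth muscle row is blue there. The T cell mean is highest in KO_AT library 4 (7.14, against 7.03 to 7.08 in KO libraries).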

How the data were processed

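RNA of whole colon was sequenced in 11 libraries. Per the labels the submitters' processing notes name HISAT2 2.2.1, SAMtools 1.13, HTSeq 1.99.2 and DESeq2 1.40.2, and the authors deposited 1 table of normalized counts for all libraries. Each deposited value is a signal, reads divided by 1 size factor per library, so whole reads could be recovered: all values came out whole within 0.05. The study's methods name GRCm39 as the genome. The strand setting of the counting and the annotation release are not given in the sources used. Totals of 18214741 to 19178986 reads per library set the counting precision.

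Identifiers were matched to GENCODE on GRCm39 (99.2% matched). A gene entered the test when its values averaged 10 or more over the libraries (16781 of 22836). A gene low in 2 groups could therefore pass through the group where it was high. Testing was done with limma 3.58.1 in R 4.3.3 on log2(normalized count + 1), in 1 fit over the 3 groups with a trend, two-sided, with Benjamini-Hochberg adjustment over all genes tested and a threshold of 0.05. A 95% interval is that of the fit, and "called" means an adjusted p under 0.05. Settings compared were pseudocounts of 0.5 and 10, no filter and a mean of at least 50, TMM scaling, scaling to epithelial markers, a fit of the 2 groups compared, the replicate number as a block, an unadjusted p under 0.05 with a log2 fold change beyond 0.6, edgeR 4.0.16 and DESeq2 1.42.0 on recovered reads, and each library left out. The fit was tested on simulated data.

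The members and the lists were chosen with earlier results of these data known. Named genes were all 8 members, the 3 nearest genes to each and up to 4 genes of each list with the smallest adjusted p per comparison. No 2 libraries were duplicates. Sequences came from RefSeq promoters (GRCm38.p6) and GENCODE transcripts (GRCm39).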

Additional observations from a re-analysis of the deposited data

How the results depend on the processing

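Lyz2, Pglyrp1, Pla2g2a and Slpi were called higher in KO than in control colons in 21 of 21 other settings, and Lyz1 in 18. Of the calls in KO_AT against KO colons, Slpi kept its own in 20 of 21, Pglyrp1 in 19, Lyz2 in 18 and Pla2g2a in 8. With epithelial scaling 1 member was called there, the median of all genes moved to -0.10 in KO against control and 0.10 in KO_AT against KO colons, and Itln1 gave -0.034 and 0.080 in these 2 comparisons. In KO_AT against control colons 268 genes and 1 member were called. The counts were 71 genes with epithelial scaling, 23 genes and 0 members (of 8 at an adjusted p under 0.05, limma) in a fit of these 2 groups, 1663 and 4 at the unadjusted threshold, 177 genes with edgeR, and 1236 and 4 with DESeq2. On recovered reads Ang4 in KO against control colons turned to -1.94 (edgeR) and -1.95 (DESeq2, which gave no adjusted p), and Itln1 to -0.37 and -0.38, with 0.087 and 0.077 in KO_AT against KO and -0.28 and -0.30 in KO_AT against control colons. The ratio of means of KO to control was 0.260 for Ang4 and 0.770 for Itln1, so the plain means were also lower in KO colons. The main fit averaged log2 values instead. The cause was not tested.

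Correlations of same-numbered libraries ran from -0.102 to 0.386. In KO_AT against control colons they were 0.386 for number 1, 0.269 for number 2 and -0.102 for number 3. For numbers 1 and 2 the same-numbered control library was the best match there. The replicate numbers were thus neither shown to pair libraries nor shown not to. With the replicate number as a block, 930 genes and 3 members were called in KO_AT against control colons, Lyz1 in KO against control colons had an adjusted p of 0.0506, Itln1 gave -0.16 in KO against control and 0.47 in KO_AT against KO colons, and Lyz1 gave 0.058 in the last comparison.

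Leaving out each library in turn gave, in KO against control colons, Ang4 -0.71 to 2.95 and Itln1 -0.41 to 0.86. In KO_AT against KO colons it gave Itln1 -0.19 to 0.28, 3078 to 5267 genes and 0 to 4 members, with 3078 genes without KO library 3 and 3336 without KO library 4. In KO_AT against control colons it gave Ang4 -2.60 to 1.07, Itln1 -0.45 to 0.82, Lypd8 -0.20 to 0.052, the Lyz2 share -0.441 to 0.722 percentage points, 11 to 831 genes and 0 to 3 members. With 3 libraries in KO and control, 1 library can set such a count, and low genes such as Pla2g2a in control colons (4.97 to 25.4 normalized counts) rest on few reads.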

Other observations

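Genes of secretory and absorptive cells of the epithelium, where Ang4, Itln1 and Lypd8 are known to be made, were counted as well. Over all genes tested, 22.7% were called higher and 22.9% lower in KO than in control colons. In KO_AT against KO colons these shares were 17% and 14.2%, and in KO_AT against control colons 1.14% and 0.453%. The goblet cell counts lay below these shares. The share of general epithelial genes called higher in KO than in control colons was near that over all genes. Of 14 goblet cell genes 2 were higher and 1 lower in KO than in control colons (median log2 fold change 0.67), and none was called in KO_AT against KO (-0.11) or KO_AT against control colons (0.46). The lower gene, Spink4, had the smallest adjusted p of the list (log2 fold change -0.986, limma adjusted p = 0.0071). The higher pair was Sytl2 (1.14, limma adjusted p = 0.0222) and Zg16, a lectin that binds bacterial cell walls. Zg16 had 49730, 36242 and 33095 normalized counts in KO and 31311, 21198 and 15630 in control libraries (log2 fold change 0.84, limma adjusted p = 0.0472).

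Of 8 genes of deep crypt secretory cells 2 were higher and 2 lower in KO than in control colons (median 0.11), 2 higher and 1 lower in KO_AT than in KO colons (0.14) and none called in KO_AT against control colons (0.16). Reg4, a marker of these cells, had 1815, 5770, 169, 3578 and 14408 normalized counts in KO_AT libraries 1 to 5, 195, 80.4 and 82.1 in KO and 11304, 15951 and 15123 in control libraries. The log2 fold change of Reg4 in KO against control colons was -6.99 (limma adjusted p = 0.000738). Retnlb, a goblet cell protein that acts on Gram-negative bacteria, ran the other way, higher in KO than in control colons by 2.78 (limma adjusted p = 0.000234) and lower in KO_AT than in KO colons (log2 fold change -2.57, limma adjusted p = 0.000545).

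Of 14 absorptive colonocyte genes 3 were higher and 7 lower in KO than in control colons (median -0.95), 5 higher and 1 lower in KO_AT than in KO colons (0.58) and 1 higher in KO_AT than in control colons (-0.33). The chloride exchanger Slc26a3, among the 7 lower, had 1299 to 15104 normalized counts in KO_AT, 478 to 1122 in KO and 7986 to 14014 in control libraries. The 3 higher were Slc9a3, Ms4a10 and Ceacam20. Of the whole list Slc9a3 had the smallest adjusted p in KO against control colons (log2 fold change 1.67, limma adjusted p = 0.000974). Slc9a3 was also the 1 gene higher in KO_AT than in control colons (1.57, limma adjusted p = 0.0269). Of 13 general epithelial genes 3 were higher and 1 lower in KO than in control colons (0.19), 1 higher and 1 lower in KO_AT than in KO colons (-0.18) and none called in KO_AT against control colons (-0.073). Of 20 Paneth cell genes 3 were tested, none of them a defensin. In KO against control colons 2 were higher, Mmp7 and Guca2b (0.97). In KO_AT against KO colons 1 was lower (-0.66), and none was called in KO_AT against control colons (0.30).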
